A study of Mus musculus with 8 samples.

Results

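The cholinergic genes described here are 9 genes that make, recycle, break down or sense the transmitter acetylcholine, chosen by symbol from a table of 56748 genes. They are Chat, Slc5a7, Slc18a3, Ache, Bche, Chrm1, Chrna4, Chrna7 and Ngfr, and each of the 9 symbols matched 1 row of the counts. Polyadenylated RNA was sequenced from brain tissue of mice aged 18 months, with 4 libraries from TgCRND8 transgenic mice (Tg) and 4 from their non-transgenic littermates (NTg). TgCRND8 mice overexpress APP, the amyloid precursor protein; the transgene is a human APP with the Swedish and Indiana mutations under the prion protein gene promoter of hamster, so it is not limited to cholinergic cells. NTg mice lack the transgene and share the breeding colony, age and housing. Per the labels' protocols, the tissue was frozen, pulverised forebrain from one side of the brain. The comparison asks whether transcripts of the cholinergic system differ between aged transgenic forebrain and that of littermates, and every fold change is Tg over NTg.

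Acetylcholine in the forebrain comes mainly, though not only, from projection neurons of the basal forebrain, which reach cortex and hippocampus, and from interneurons of the striatum. Chat makes the transmitter from choline, Slc5a7 takes choline up into the nerve ending, and Slc18a3 loads the transmitter into vesicles, so these 3 genes mark cholinergic neurons. Ache and Bche encode the enzymes that break acetylcholine down. Chrm1 is a muscarinic receptor coupled to a G protein, while Chrna4 and Chrna7 are subunits of nicotinic ion channels, and these receptors lie mostly on other cells. Ngfr, the p75 neurotrophin receptor, is strongly made in basal forebrain cholinergic neurons, which depend on neurotrophins. Loss of basal forebrain cholinergic neurons is a known feature of Alzheimer disease.

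Chat and Slc18a3 form one locus on chromosome 14: the single exon of Slc18a3 lies inside Chat, on the same strand and outside its exons (Chat spans chr14:32408203-32465989 and Slc18a3 chr14:32462438-32464850 in GENCODE release M21, build GRCm38). The counts were made on a later build, GRCm39, so these positions serve for gene structure alone. Unspliced Chat RNA that crosses Slc18a3 could be counted as Slc18a3. The start regions of the 3 neuron-marking genes are shown because their RNA levels went up and down together between libraries. Each is 250 bases before to 50 bases after the start, from RefSeq on build GRCm38.p6, on the minus strand, at chr14:32465860-32466159 for Chat, chr17:54298985-54299284 for Slc5a7 and chr14:32464801-32465100 for Slc18a3. Capitals mark the letters GGGCGG, a core bound by Sp factors, or TATAAA, an element found ahead of many start sites, on either strand.
Chat promoter: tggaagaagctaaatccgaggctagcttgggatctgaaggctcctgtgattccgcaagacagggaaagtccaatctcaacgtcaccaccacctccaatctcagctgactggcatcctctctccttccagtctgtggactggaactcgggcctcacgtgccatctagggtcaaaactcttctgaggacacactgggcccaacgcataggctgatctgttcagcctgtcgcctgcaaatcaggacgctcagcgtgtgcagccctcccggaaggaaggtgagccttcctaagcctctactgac
Slc5a7 promoter: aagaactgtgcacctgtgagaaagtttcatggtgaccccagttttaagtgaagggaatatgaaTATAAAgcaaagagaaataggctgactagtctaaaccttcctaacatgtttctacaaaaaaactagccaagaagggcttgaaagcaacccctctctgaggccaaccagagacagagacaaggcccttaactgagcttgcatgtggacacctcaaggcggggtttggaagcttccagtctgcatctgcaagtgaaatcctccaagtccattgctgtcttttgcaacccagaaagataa
Slc18a3 promoter: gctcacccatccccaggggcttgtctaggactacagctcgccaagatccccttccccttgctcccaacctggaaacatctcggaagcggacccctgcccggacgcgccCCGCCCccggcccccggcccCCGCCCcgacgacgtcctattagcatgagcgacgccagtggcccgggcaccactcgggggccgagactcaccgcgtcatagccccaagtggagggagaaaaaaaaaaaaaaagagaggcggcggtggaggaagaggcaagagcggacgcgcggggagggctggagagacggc
The window of Slc18a3 held GGGCGG at 2 places and was 67.0% G or C, above 85.6% of the 32851 promoter windows in the table. The window of Slc5a7 held 1 TATAAA, which lay nearer the upstream end of the window than the start site, and was 44.7% G or C. That of Chat held neither GGGCGG nor TATAAA and was 55.7% G or C, against a median of 52.7%. GGGCGG was in 35.7% of all windows and TATAAA in 13.6%. The letters TGACGTC (most of a cyclic AMP response element) and TAATTA (a core bound by many homeodomain factors), in 3.21% and 5.29% of all windows, were in none of these 3. Among the 5 other members with a window in the table, that of Bche was poor in G and C, at 39.3%, while those of Ache, Chrna4, Chrna7 and Ngfr were rich, at 70.0% to 74.3%. The 3 genes that share a cell type therefore had start regions of unlike composition, and these letters say nothing of which factors bind there.

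Library totals were 57129090 to 65242741 counts, and 21588 genes passed the filter on low counts, with all 9 members among them. Levels are given in CPM, counts per 1000000 after scaling between libraries. The label of the transgenics held: App was 1390 to 1623 CPM in NTg and 2532 to 2980 CPM in Tg. Forebrain markers were present, with Camk2a, a kinase of excitatory forebrain neurons, at 1127.5 to 1593 CPM. Levels of markers of other regions differed between libraries, and whether the pieces of tissue differed was not tested. The most abundant hypothalamic marker, Pmch, ran from 0.124 to 21.4 CPM, and Slc6a5, the glycine transporter of brainstem neurons, was at 24.5 to 79.6 CPM. A cerebellar marker named after its values were seen, Gabra6, was at 63.9 to 180 CPM in tissue labelled forebrain. Cranial motor nuclei of the brainstem are cholinergic too, and what share of the Chat, Slc5a7 and Slc18a3 counts came from outside the forebrain was not tested. In whole tissue, fewer cells of a type and less RNA per cell cannot be told apart.

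None of the 9 cholinergic genes passed the test between genotypes. The quasi-likelihood test of edgeR called 0 of 9 at an adjusted p under 0.05 and 0 of 9 at an unadjusted p under 0.05. Over all genes tested, 0.0139% were called (3 of 21588), and 7.36% had an unadjusted p under 0.05. DESeq2 and limma-voom also called 0 of 9, where DESeq2 called 1.63% of all genes, and only Bche had an unadjusted p under 0.05 in DESeq2 (0.0431, adjusted p = 0.587), as had 7.35% of all genes. The fitted fold change was below 0 for 8 of the 9, with Slc18a3 the exception, and the median log2 fold change was -0.17, against -0.0024 over all genes tested, of which 10615 had a fold change above 0 and 10973 below. Other lists leaned that way too: 8 of 8 thalamic, 8 of 8 endothelial and 8 of 8 myelin markers were below 0. So were 8 of 8 choroid plexus markers (median log2 fold change -0.72), 5 of 5 red cell markers and 8 of 10 striatal markers. Below 0 were also 2 of 8 markers of medial habenula, 1 of 8 of cerebellum, 1 of 8 of astrocytes and 0 of 8 of microglia. No member had genotypes that did not overlap, which holds for 4.2% of all genes. The lowest count of any member was 92 (Slc18a3), where counting error alone is 10.4%. In both genotypes each member's SD, as a share of its mean, was above the counting error at its lowest count. For some the margin was modest: 13.3% against 7.78% for Chat in NTg, and 9.71% (NTg) and 9.79% (Tg) against 4.03% for Chrna7. The highest library exceeded the lowest by 1.46-fold (Chrm1) to 4.08-fold (Slc18a3).

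**Figure D1:**
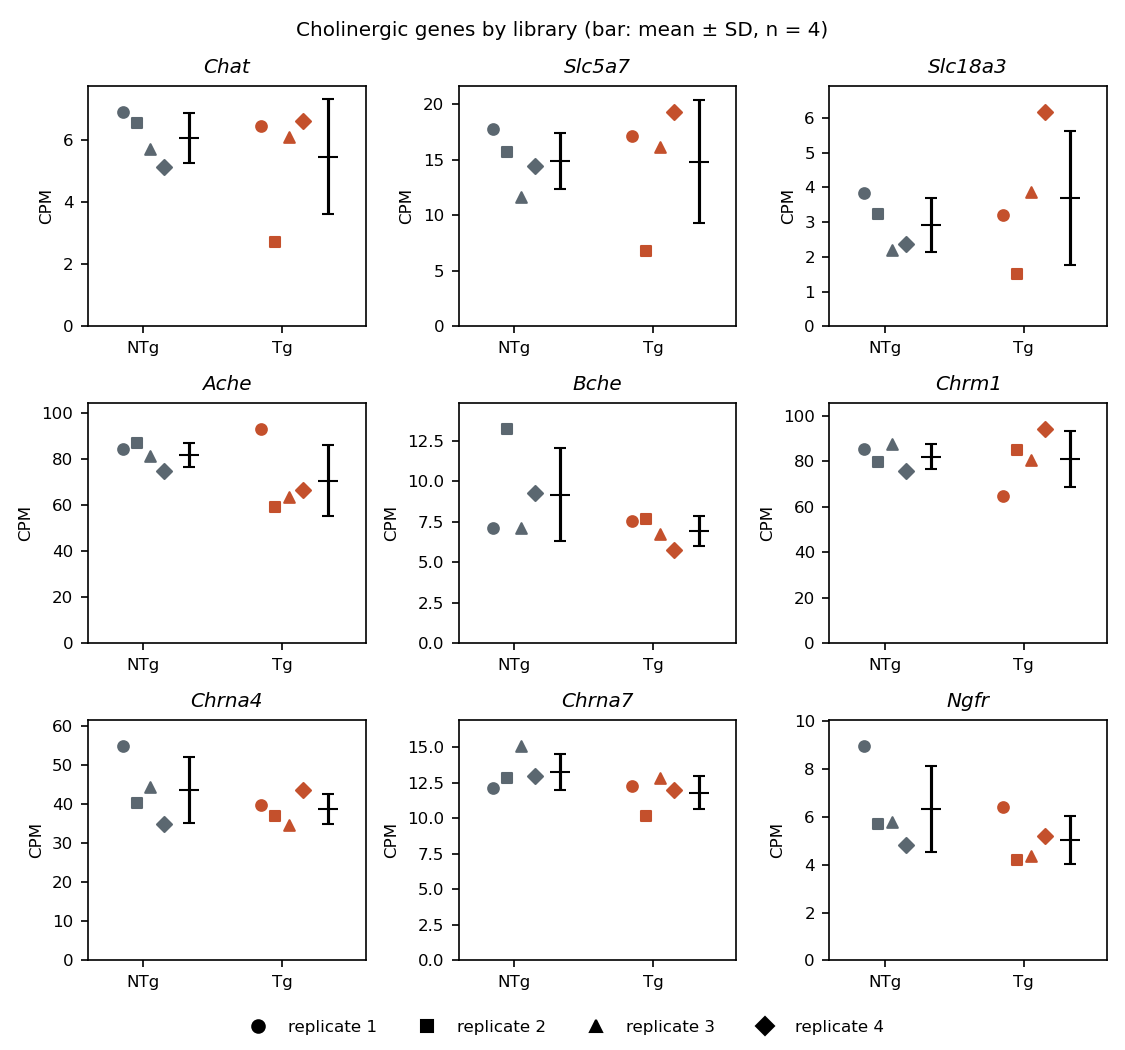
CPM (y axis, from 0) of each cholinergic gene in the 4 NTg (grey) and 4 Tg (orange) libraries; marker shape gives the replicate number and the bar the mean ± SD. The genotypes overlap in all 9 panels, and Tg replicate 2 (square) is the lowest of the 8 libraries for Chat, Slc5a7, Slc18a3, Ache, Chrna7 and Ngfr.

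Chat, the acetylcholine-making enzyme, was at 6.92, 6.55, 5.70 and 5.13 CPM in NTg replicates 1 to 4 and at 6.44, 2.71, 6.11 and 6.62 CPM in Tg replicates 1 to 4. Of the Tg libraries, 3 lay within the NTg range and replicate 2 lay far below it. The means were 6.08 ± 0.808 and 5.47 ± 1.85 CPM (SD, n = 4), with a log2 fold change of -0.15 (SE 0.248, 95% interval -0.71 to 0.40, edgeR adjusted p = 0.963). Without Tg replicate 2 the Tg mean was 6.39 ± 0.259 CPM and the log2 fold change turned to 0.07 (edgeR adjusted p = 1).

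Slc5a7, the high-affinity choline transporter, showed the same library apart. It was at 17.7, 15.7, 11.7 and 14.5 CPM in NTg and at 17.1, 6.79, 16.1 and 19.3 CPM in Tg, in replicate order. Tg replicate 2 was again lowest, and Tg replicate 4 was highest. The means were almost equal, 14.9 ± 2.54 and 14.8 ± 5.53 CPM (SD, n = 4), and the log2 fold change was -0.0054 (SE 0.272, 95% interval -0.61 to 0.60, edgeR adjusted p = 0.999). Without Tg replicate 2 it was 0.23 (SE 0.134, edgeR adjusted p = 0.956).

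Slc18a3, the vesicular acetylcholine transporter, had the widest range of the 9 genes over the 8 libraries, though within NTg Bche (1.87-fold) and Ngfr (1.85-fold) ranged wider than it did (1.76-fold). NTg libraries held 3.85, 3.23, 2.19 and 2.36 CPM and Tg libraries 3.21, 1.51, 3.85 and 6.17 CPM. One Tg library lay below all NTg libraries and 2 above them, of which replicate 3 only just. The log2 fold change was 0.34 (SE 0.361, 95% interval -0.47 to 1.15, edgeR adjusted p = 0.925), with means of 2.91 ± 0.775 and 3.69 ± 1.93 CPM (SD, n = 4). It was 0.60 without Tg replicate 2 and -0.02 without Tg replicate 4, neither called. Tg replicate 4 also held the highest level of Prph, a peripherin of motor and other peripherally projecting neurons, at 12.2 CPM against 3.54 to 6.45 CPM in the other libraries; Prph was named after its values were seen, and its part in the Slc18a3 level was not tested. Of the 10 brainstem and motor markers, 2 were at their highest in that library, Prph among them, and 4 were at their lowest. The list summed to 45.2 CPM there, against 37.7 to 103 CPM for NTg and 40.3 to 72.6 CPM for all Tg libraries, and no marker was at 0 in all libraries.

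The 3 neuron-marking genes went together across the 8 libraries, while no pair with Ngfr passed the test; the difference between these correlations was not tested. For log2 CPM, Pearson's r was 0.946 between Chat and Slc5a7 (exact permutation p = 0.00789, adjusted over 6 pairs 0.0158) and Spearman's rho was 0.881 (exact permutation p = 0.00724, adjusted 0.0217). For Slc5a7 and Slc18a3, r was 0.887 (exact permutation p = 0.000198, adjusted 0.00119) and rho 0.881 (exact permutation p = 0.00724, adjusted 0.0217). For Chat and Slc18a3, r was 0.792 (exact permutation p = 0.00675, adjusted 0.0158) and rho 0.786 (exact permutation p = 0.0279, adjusted 0.0559). With the 2 libraries farthest from the median of the first gene left out, r was 0.856, 0.900 and 0.643 in that order. Tg replicate 2 carried part of this: without it r was 0.696, 0.878 and 0.705, and no pair passed after adjustment (exact permutation, adjusted p = 0.166, 0.0798 and 0.166). Chat and Slc18a3 had r = 0.898 within the 4 NTg and 0.899 within the 4 Tg libraries, Slc5a7 and Slc18a3 0.919 and 0.931, and Chat and Slc5a7 0.653 and 0.996, given as values with no test for so few libraries. Ngfr with Chat had r = 0.595 (exact permutation p = 0.134, adjusted 0.201) and rho = 0.667 (exact permutation p = 0.0831, adjusted 0.125), and 0.544 without the 2 farthest libraries. With Slc5a7 it had r = 0.494 and rho = 0.476 (exact permutation p = 0.212 and 0.243, adjusted 0.254 and 0.292), and r = 0.391 without the 2 farthest. With Slc18a3 it had r = 0.324 and rho = 0.167 (exact permutation p = 0.432 and 0.703, adjusted 0.432 and 0.703), and r = 0.282 without the 2 farthest. Within the 4 NTg libraries alone, r of Ngfr was 0.820 with Chat, 0.597 with Slc5a7 and 0.785 with Slc18a3, and within the 4 Tg libraries it was 0.621, 0.614 and 0.397.

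In Tg replicate 2, where these genes were low, all 10 striatal markers were also at their lowest of the 8 libraries. Chat stood 1.14 log2 units below the NTg mean there (a value of -1.14), Slc5a7 at -1.11 and Slc18a3 at -0.89, while the mean of the striatal list was -0.47. Pde10a, a phosphodiesterase of striatal projection neurons and the most abundant of the list, was at 119 CPM in that library against 144 to 197 CPM in the others. The list summed to 505 CPM there, to 592 to 825 CPM in NTg, and to 635 to 780 CPM in Tg replicates 1, 3 and 4, and none of its 10 genes was at 0 in all libraries. Hypothalamic markers were low in the same library (mean -1.29), as they were in NTg replicate 4 (-1.53) and Tg replicate 4 (-2.35), where Chat was at 5.13 and 6.62 CPM. Of 8 oligodendrocyte and myelin markers, 6 were at their lowest in Tg replicate 2 (mean -0.28), and Mbp, the most abundant of them, had r = 0.844 with Chat over the 8 libraries, above the r of Pde10a (0.729), given as a description. Markers of cortex and hippocampus were not low in Tg replicate 2 (mean 0.13). Nor, by their mean, were those of medial habenula (0.36) or of septum and diagonal band neighbours (0.28). Of the latter 8 markers, 1 was at its lowest there (Dgkk, 4.18 CPM) and 2 at their highest (Zic4 and Sln). Among these 8, Prdm12 and Sln were near the floor, with 3 to 53 and 9 to 77 counts a library. Dgkk, Prdm12 and Sln were named after their values were seen. The list of forebrain cholinergic transcription factors had a mean of -0.32 there. That list was at -0.33 in NTg replicate 4, -0.39 in Tg replicate 3 and -0.98 in Tg replicate 4. The part of tissue makeup in the low cholinergic values was not tested.

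**Figure D2:**
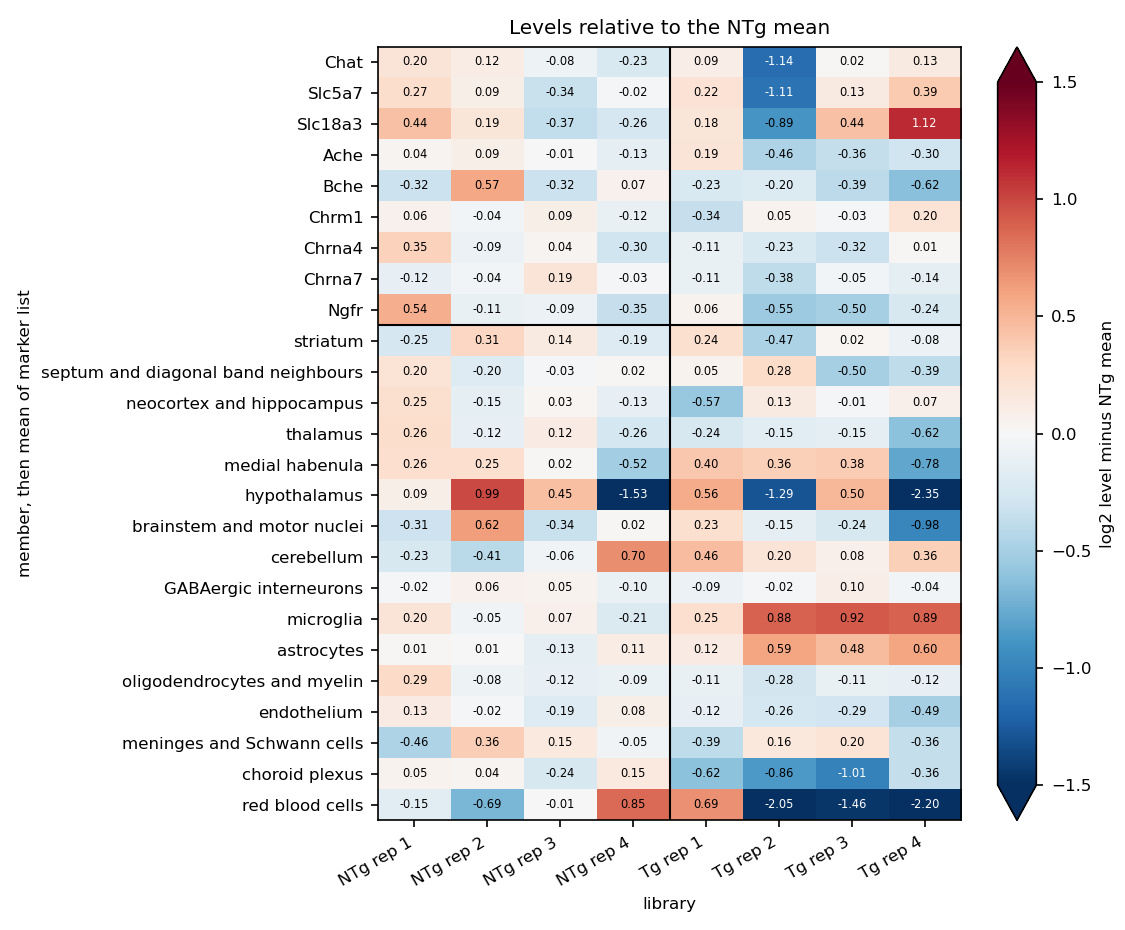
Colour and printed numbers give the log2 level of each cholinergic gene (upper 9 rows) and the mean over each marker list (lower rows) minus the NTg mean, for the 8 libraries (columns, NTg left and Tg right). Tg replicate 2 stands at -1.14 for Chat and -0.47 for the striatal list, and red cell and hypothalamic lists also vary widely between libraries. The choroid plexus list is lower in every Tg library (-1.01 to -0.36) than in any NTg library (-0.24 to 0.15).

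Ratios within a library take out shifts common to 2 genes. Slc5a7 over Chat was 2.04 to 2.82 in NTg and 2.503 to 2.92 in Tg, and in Tg replicate 2 it was 2.503, inside the NTg range. Slc18a3 over Chat was 0.383 to 0.556 in NTg and 0.499, 0.558, 0.631 and 0.933 in Tg replicates 1 to 4. So 3 of 4 Tg libraries lay above all NTg libraries in that ratio, Tg replicate 2 only just (0.558 against 0.556), and the group means were 0.473 ± 0.0719 and 0.655 ± 0.193 (SD, n = 4). These ratios are given as descriptions, without a test.

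Ache, acetylcholinesterase, is the enzyme that ends transmission at cholinergic synapses. It was at 84.3, 87.3, 81.4 and 74.9 CPM in NTg and at 93.4, 59.4, 63.7 and 66.6 CPM in Tg, in replicate order. Of the Tg libraries, 3 lay below every NTg library and Tg replicate 1 lay above all of them. The means were 82.0 ± 5.31 and 70.8 ± 15.4 CPM (SD, n = 4), with a log2 fold change of -0.21 (SE 0.128, 95% interval -0.50 to 0.07, edgeR adjusted p = 0.823). Without Tg replicate 1 the Tg mean was 63.2 ± 3.64 CPM, the log2 fold change was -0.38 (SE 0.0656) and Ache passed the test (edgeR adjusted p = 0.028, n = 3 Tg and 4 NTg). It was then the only one of the 9 members to pass, while 1.43% of all genes passed without that library and 0.174% passed as lower in Tg. Over the alternative fits its edgeR, DESeq2 or limma adjusted p was 0.028 to 1. Ache shares 98 exon bases with Gm42456 on the other strand, which held 12 to 27 counts a library, so reads there cannot be told apart without strand.

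Tg replicate 1 differed from the other Tg libraries in more than Ache. It was the lowest of the 8 libraries for 7 of 8 markers of neocortex and hippocampus (list mean -0.57), and 3 of 10 striatal markers were at their highest there (mean 0.24). Microglial markers summed to 391 CPM in it and to 618 to 630 CPM in Tg replicates 2 to 4, against 289 to 374 CPM in NTg. Lhx8 and Gbx1, transcription factors of forebrain cholinergic neurons that fall outside the naming rule and were picked after their values were seen, were at their highest there, at 3.58 and 2.55 CPM against 0.686 to 2.82 and 0.516 to 1.92 CPM elsewhere. Of the 8 such factors listed, only 3 were at their highest in that library. Whether these bear on the Ache level was not tested.

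Bche, butyrylcholinesterase, hydrolyses acetylcholine more slowly and is made by glia, vessels and some neurons. It was at 7.10, 13.2, 7.09 and 9.30 CPM in NTg and at 7.58, 7.70, 6.75 and 5.74 CPM in Tg, in replicate order. NTg replicate 2 stood far above the rest, and 2 Tg libraries lay below all NTg libraries. The means were 9.18 ± 2.90 and 6.94 ± 0.903 CPM (SD, n = 4), with a log2 fold change of -0.40 (SE 0.199, 95% interval -0.85 to 0.04, edgeR adjusted p = 0.723). Without NTg replicate 2 it was -0.17 (edgeR adjusted p = 0.999). In NTg replicate 2 several marker lists stood apart: 7 of 10 striatal, 5 of 8 hypothalamic and 5 of 10 brainstem markers were at their highest of the 8 libraries there, with list means of 0.31, 0.99 and 0.62 on the log2 scale above the NTg mean. Of the 8 meningeal and Schwann cell markers, 1 was at its highest there, though their sum, 67.5 CPM, was the highest of the 8 libraries (47.4 to 65.6 CPM in the others). Their part in the Bche value was not tested. Ache exceeded Bche in CPM by 6.59 to 11.9 times in NTg and 7.72 to 12.3 times in Tg libraries, so the balance of the enzymes at the RNA level overlapped between genotypes.

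Per kilobase of exon, Ache was the most abundant member at 16.5 ± 2.64 CPM per kilobase over 8 libraries and Bche the least at 1.2 ± 0.344 (SD, n = 8). Chrm1 followed Ache at 12.6 ± 1.36, below it in 6 of 8 libraries, and Chrna4 stood at 8.21 ± 1.33, below Chrm1 in all 8. A gap without overlap separated Chrna4, at 6.88 or more, from Chrna7, at 3.35 or less. Below it, neighbours overlapped throughout: Chrna7 (2.78 ± 0.305), Slc5a7 (2.63 ± 0.706), Ngfr (1.65 ± 0.442), Slc18a3 (1.37 ± 0.590), Chat (1.23 ± 0.289) and Bche. On this scale of level per length, Ache, Chrm1 and Chrna4 stood above Chat, Slc5a7, Slc18a3 and Ngfr in all 8 libraries. Chrna7 stood above Chat, Slc18a3 and Ngfr in 8 of 8 libraries and above Slc5a7 in 4 of 8.

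Of the receptors, Chrm1, the main muscarinic receptor of cortex and hippocampus, was at 85.5, 79.8, 87.3 and 75.7 CPM in NTg and at 64.6, 84.7, 80.5 and 94.3 CPM in Tg, in replicate order. Its lowest and highest values were both in Tg libraries. The means were 82.1 ± 5.35 and 81.0 ± 12.4 CPM (SD, n = 4), and the log2 fold change was -0.02 (SE 0.103, 95% interval -0.25 to 0.21, edgeR adjusted p = 0.994), turning to 0.0050 with unscaled library totals. Its lowest value fell in Tg replicate 1, where Camk2a was also lowest, at 1127.5 CPM.

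Chrna4, which forms the main high-affinity nicotinic receptor of the brain with Chrnb2, was at 55.0, 40.4, 44.5 and 34.97 CPM in NTg and at 39.9, 36.9, 34.6 and 43.5 CPM in Tg. NTg replicate 1 stood above the rest, and of the Tg libraries replicate 3 alone lay below the NTg range. The log2 fold change was -0.18 (SE 0.128, 95% interval -0.46 to 0.11, edgeR adjusted p = 0.868), and -0.05 without NTg replicate 1. The level of Chrnb2 was 73.0 ± 4.46 CPM for NTg libraries and 69.0 ± 4.47 for Tg (SD, n = 4; edgeR adjusted p = 0.878).

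Chrna7, the subunit of the homomeric nicotinic channel, had the smallest SE of the 9 members. It was at 12.1, 12.8, 15.1 and 13.0 CPM in NTg and at 12.3, 10.1, 12.8 and 12.0 CPM in Tg. Of the Tg libraries, 2 lay below all NTg libraries. The log2 fold change was -0.17 (SE 0.0945, 95% interval -0.38 to 0.04, edgeR adjusted p = 0.79), and it lay between -0.21 and -0.10 with any 1 library left out.

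Ngfr was at 8.97, 5.70, 5.79 and 4.83 CPM in NTg and at 6.40, 4.19, 4.35 and 5.21 CPM in Tg, in replicate order. NTg replicate 1 was the highest library, and 2 Tg libraries lay below all NTg libraries. The means were 6.32 ± 1.81 and 5.04 ± 1.01 CPM (SD, n = 4), with a log2 fold change of -0.33 (SE 0.205, 95% interval -0.79 to 0.13, edgeR adjusted p = 0.833). Without NTg replicate 1 it was -0.11 (edgeR adjusted p = 0.969).

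**Figure D3:**
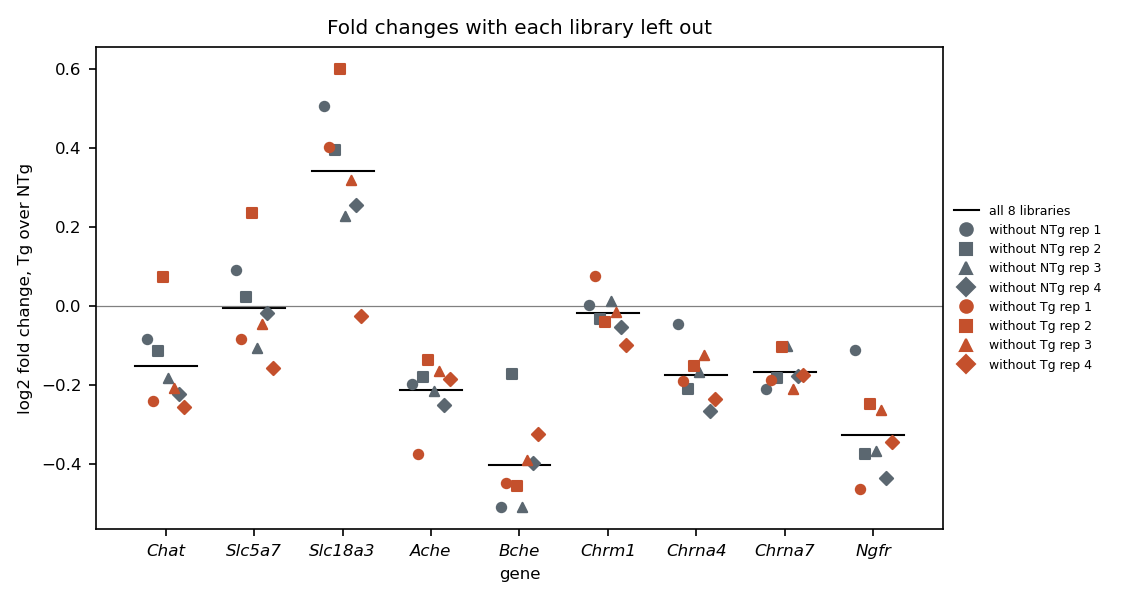
Log2 fold change (y axis, Tg over NTg) of each cholinergic gene with all 8 libraries (black line) and with 1 library left out (grey shapes for NTg, orange for Tg replicates). Chat crosses 0 when Tg replicate 2 is left out and Slc18a3 when Tg replicate 4 is, Slc5a7 and Chrm1 lie near 0 and cross it without any of 3 libraries, and Ache stands at -0.38 without Tg replicate 1.

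The wider cholinergic list held 66 further genes, of which 62 were tested, and edgeR and DESeq2 each called 0 of them. Like several marker lists, the wider list with the members leaned below 0. Of its 71 tested genes, 55 had a fold change below 0 and 16 above, and the median log2 fold change was -0.08. At an unadjusted p under 0.05 by edgeR, 1 was higher and 5 lower in Tg, 8.45% of the 71, where 7.36% of all genes lay under that limit (4.68% higher and 2.68% lower in Tg). The pooled share was close to that of all genes, but the directions were not split alike: 7.04% of the 71 were lower and 1.41% higher in Tg. By DESeq2, 7 of the 71 (9.86%) were lower at an unadjusted p under 0.05, Bche among them, and 1 (1.41%) was higher, against 3.06% and 4.29% of all genes. No test was made of this split, and the list was chosen with results of these data known. Among 5 muscarinic receptors, Chrm2, the autoreceptor on cholinergic endings, averaged 32.4 ± 3.05 CPM over NTg libraries and 25.2 ± 6.33 over Tg (SD, n = 4; log2 fold change -0.36, unadjusted p = 0.042, edgeR adjusted p = 0.644). It was at 23.8, 24.5, 33.8 and 18.6 CPM in the Tg libraries, so replicate 3 lay inside the NTg range of 28.4 to 35.7 CPM. Chrm3 was at 36.9 ± 2.51 and 35.1 ± 6.05 CPM (edgeR adjusted p = 0.962).

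Of 16 nicotinic subunits, 12 were tested, and 0 had an unadjusted p under 0.05, with 9 fold changes below 0 and 3 above. The subunits Chrna9, Chrnd, Chrne and Chrng, the last 3 of muscle receptors, held 0 to 20 counts per library and were too low to test. Of 8 chaperones and prototoxins of nicotinic receptors, 0 had an unadjusted p under 0.05. Lynx1, a membrane-bound brake on nicotinic receptors, was the most abundant, with 417 ± 36.3 CPM for NTg and 402 ± 33.1 for Tg, followed by Ly6e at 112 ± 13.7 and 114 ± 7.54 CPM (SD, n = 4). Both anchors of cholinesterases were lower in mean without passing the test: Prima1, which holds Ache in neuronal membranes, was at 5.02 ± 0.802 and 4.06 ± 0.548 CPM (edgeR adjusted p = 0.712), and Colq at 1.92 ± 0.479 and 1.67 ± 0.272 CPM (edgeR adjusted p = 0.92). Prima1 and Colq fall outside the naming rule and were picked after their values were seen.

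Of 13 genes of choline transport and phospholipid supply, 1 was higher and 1 lower at an unadjusted p under 0.05. Slc44a2, a choline transporter-like protein, averaged 39.2 ± 2.01 CPM over NTg libraries and 44.1 ± 3.15 over Tg (log2 fold change 0.17, unadjusted p = 0.0211, edgeR adjusted p = 0.507). Chdh, which oxidises choline to betaine in mitochondria, was at 7.90 ± 0.678 and 6.41 ± 0.529 CPM (log2 fold change -0.30, unadjusted p = 0.0114, edgeR adjusted p = 0.389). The most abundant genes of this group were Slc44a1 (115 ± 6.0 and 119 ± 8.91 CPM) and Chpt1 (83.7 ± 9.97 and 84.2 ± 6.30 CPM), at an edgeR adjusted p of 0.946 and 0.997.

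Among 9 neurotrophins and receptors, 0 had an unadjusted p under 0.05. Ntrk2, the receptor of brain-derived neurotrophic factor, averaged 621 ± 20.01 CPM over NTg libraries and 662 ± 37.95 over Tg, and Sort1, a partner of Ngfr, at 466 ± 25.1 and 432 ± 38.1 CPM (SD, n = 4; edgeR adjusted p = 0.806 and 0.84). Of 8 transcription factors, 0 had an unadjusted p under 0.05, and the most abundant were Zic1 (140 ± 33.5 and 156 ± 21.2 CPM) and Zic4 (10.9 ± 1.73 and 11.3 ± 2.36 CPM), which other brain cells make as well.

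The 9 genes of muscarinic signal transduction all had fold changes below 0, with a median log2 fold change of -0.08. By edgeR, 3 of them (33.3%) were lower at an unadjusted p under 0.05, against 2.68% of all genes. In Tg replicate 1, 4 of the 9 were at their lowest of the 8 libraries, as were 7 of 8 markers of neocortex and hippocampus. Kcnq3, a subunit of the M current that muscarinic receptors shut, averaged 129 ± 7.02 CPM over NTg libraries and 111 ± 11.7 over Tg (SD, n = 4; log2 fold change -0.22, unadjusted p = 0.0188, edgeR adjusted p = 0.488). Its 4 Tg libraries, at 93.9 to 120 CPM, lay below all NTg libraries, at 123 to 139 CPM. The inhibitory G protein Gnai1 averaged 215 ± 8.64 and 196 ± 9.25 CPM (unadjusted p = 0.022, edgeR adjusted p = 0.516). Plcb1, the phospholipase downstream of Chrm1, was named for its separation after its values were seen. It was also lower in all 4 Tg libraries (145 to 173 CPM) than in any NTg library (176 to 183 CPM), with an unadjusted edgeR p of 0.0546. Of the 71 tested genes of the wider list, these 2 had genotypes that did not overlap with Tg lower, and 0 with Tg higher, against 1.58% and 2.62% of all genes. The most abundant gene of the group, Gnao1, was at 595 ± 44.3 and 585 ± 24.4 CPM. Many cell types use these genes, so their counts are not tied to cholinergic signalling.

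**Figure D4:**
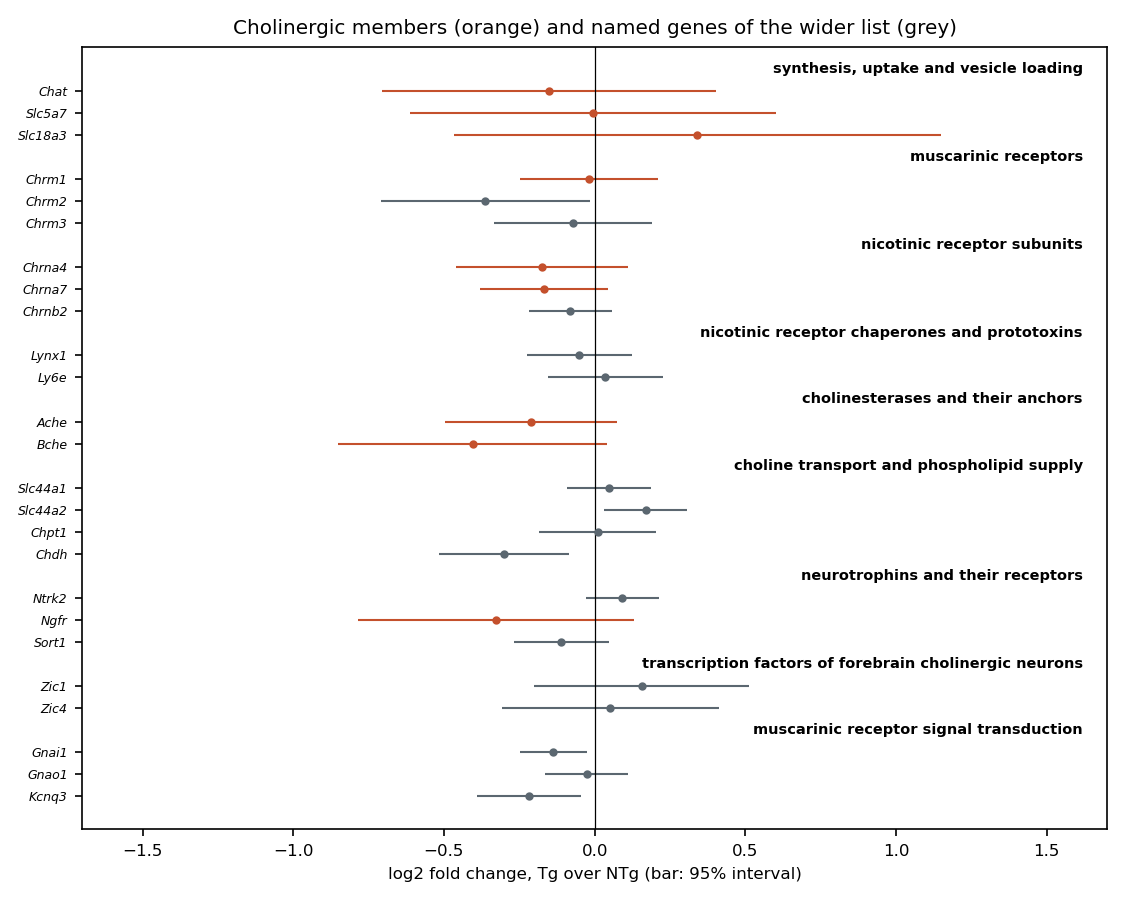
Log2 fold change (x axis, Tg over NTg) with its 95% interval from edgeR for the 9 members (orange) and the genes named from the wider cholinergic list (grey), grouped by role. Intervals of all 9 members include 0, and among the members that of Slc18a3 is the widest.

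The genes most like Chat over the 8 libraries were ranked among 14230 tested genes with a mean of at least 1 CPM. Left out were the 9 members, among them Slc5a7 (r = 0.946 with Chat), and genes with no symbol or a predicted or clone-type one. The first 5 were Pcyt1b, Cd99l2, Plekhb1, Fam177a and Reep1, with a Pearson's r of log2 CPM of 0.964, 0.953, 0.924, 0.922 and 0.918. Their Spearman's rho was 0.810, 0.643, 0.952, 0.857 and 0.738 in the same order. Without Tg replicate 2, r was 0.856, 0.747, 0.931, 0.647 and 0.448, so all but Plekhb1 were less like Chat without that library. Pcyt1b, an enzyme of phosphatidylcholine synthesis that is also on the wider list, was at 51.5 to 55.6 CPM in NTg and at 55.9, 46.6, 52.7 and 54.3 CPM in Tg, a far smaller range than that of Chat. With so many genes and 8 libraries, high values of r are found for some genes in any case, and these are a description with no test.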

How the data were processed

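The values analysed were whole-number read counts for each Ensembl gene, deposited by the authors without normalization. Per the submitters' processing notes, the authors' tools were STAR and DESeq2 on GRCm39. The sources used here do not give their versions, the counter, its strand setting or the annotation. Per the labels' protocols, polyadenylated RNA went into Illumina's TruSeq RNA kit, version 2 (strand is not kept), and was sequenced in pools as 75-base read pairs. The column of each sample was found through its library name, and 0 columns belonged to no sample. Symbols were matched by Ensembl identifier (52073 of 56748).

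Low genes were removed with filterByExpr of edgeR (at least 10 counts, 15 in total). TMM scaling and the quasi-likelihood F test of edgeR followed, with Benjamini-Hochberg adjustment over all 21588 genes and a threshold of 0.05. The SE is the log2 fold change divided by the square root of F. Log2 CPM used a prior count of 2. Exon lengths came from GENCODE release M21. Software was R 4.3.3, edgeR 4.0.16, limma 3.58.1, DESeq2 1.42.0 and Python 3.11.15 with scipy 1.17.1. The test was tried on simulated counts for Tg against NTg, with 21331 genes tested. It called 52.2% of 67 genes set to differ 1.5-fold, 65.7% of 67 at 2-fold and 89.4% of 66 at 3-fold, and made 5 false calls. These shares depend on how many genes were set to differ, so they do not give the chance of a call in the data. There, all 8 microglial markers were higher in Tg at an unadjusted edgeR p under 0.05, and 0 were called. Trem2, named after its values were seen, had a log2 fold change of 1.56 and an edgeR adjusted p of 0.0723. The labels number the replicates but do not say that each is a separate animal, and if some are not, p-values measure only the spread between libraries. Every pair of libraries of a genotype differed by more than sampling noise (chi-square per degree of freedom 11.0 or more).

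The 9 members and all gene lists were chosen with earlier results of these data known. Named genes were the members, genes of the wider list with an unadjusted p under 0.05 or an adjusted one, and the 2 most abundant of each role group. The most abundant gene of a marker list, App, and the 5 genes outside the members most like Chat were named too. Others are named as such. Some genes that meet this rule are not reported here. Alternatives were DESeq2, limma-voom, other scaling, no or a stricter filter, robust dispersion, the replicate block and each library left out; those for the correlations were chosen after seeing the data.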

Additional observations from a re-analysis of the deposited data

Results flagged for a closer look

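In the 4 Tg libraries, Chat was far lower in replicate 2, at 2.71 CPM, than in the others, at 6.11 to 6.62 CPM, and the gap to the nearest library was 0.87 of the group's range; that is above Dixon's critical value for 4 samples. Chrnb2 was far higher in Tg replicate 1, at 75.7 CPM, than in the other Tg libraries, at 66.2 to 67.3 CPM, with a gap of 0.885 of the range. These were 2 of 52 groups looked at over 26 named genes, and chance alone sets apart about 1 in 20 groups.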

How the results depend on the processing

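The number of genes called over all was 3, and it was 352 with DESeq2, 127 with no filter on low counts, 1 with the replicate block, and 3 to 314 with 1 library left out (the highest, 314, when Tg replicate 1 was out, 16 when NTg replicate 1 was, 9 when Tg replicate 2 was). Of the 9 members, and of the wider list, 0 were called with all 8 libraries under each alternative, and 0 to 1 with 1 library left out, the 1 being Ache without Tg replicate 1. Log2 fold changes with 1 library left out ran from -0.38 to -0.14 for Ache, -0.26 to 0.07 for Chat, -0.10 to 0.08 for Chrm1, -0.02 to 0.60 for Slc18a3 and -0.16 to 0.23 for Slc5a7. The direction of Chat turned without Tg replicate 2 (0.072), that of Slc18a3 without Tg replicate 4 (-0.025), that of Slc5a7 without NTg replicate 1 (0.089), NTg replicate 2 (0.021) or Tg replicate 2 (0.23) and with unscaled totals (0.018), and that of Chrm1 without NTg replicate 1 (0.0012), NTg replicate 3 (0.012) or Tg replicate 1 (0.075) and with unscaled totals (0.0050); the cause was not tested. Bche, Chrna4, Chrna7 and Ngfr kept their direction and stayed without a call in every alternative fit. With 1 library left out, r was 0.70 to 0.98 for Chat and Slc5a7, 0.71 to 0.89 for Chat and Slc18a3 (not called without NTg replicate 1, Tg replicate 2 or Tg replicate 3) and 0.88 to 0.93 for Slc5a7 and Slc18a3.

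Same-numbered Tg and NTg libraries did not deviate together: the correlations of their deviations were 0.0656, -0.0321, 0.155 and -0.00894 for numbers 1 to 4, and not every library correlated best with its own number. With the replicate block 1 gene was called over all and 0 of the 9 members, with log2 fold changes of -0.21 for Chat, -0.23 for Ache and -0.31 for Ngfr (edgeR adjusted p = 0.998, 0.804 and 0.752). The 95% intervals of Chat, Slc5a7, Slc18a3, Bche and Ngfr reach past 1.5-fold in at least one direction, so differences of that size are not excluded for these 5 genes.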
